A study of Mus musculus with 6 samples.

Results

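Neutrophil granule genes were examined in sorted erythroblasts from the bone marrow (BM) of anemic mice. The 10 genes were chosen by name, as the products of successive granule classes of the maturing neutrophil, with earlier results of these data known. All 10 of the 10 were found among the non-control probes of the array. They were 4 azurophil granule genes (Mpo, Elane, Prtn3 and Ctsg), 4 specific granule genes (Camp, Ltf, Ngp and Lcn2) and the S100 genes S100a8 and S100a9. Of 14158 genes with a tested probe, these are 10.

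Neutrophils build their granules in order. Azurophil granules are filled first, in promyelocytes, with myeloperoxidase and serine proteases, and specific granules follow in myelocytes and metamyelocytes, with lactoferrin, cathelicidin and lipocalin. S100A8 and S100A9 are calcium-binding proteins that are abundant in the cytosol of neutrophils. Erythroblasts are not known as a source of any of these granules, and the sort selected for the transferrin receptor CD71 and the erythroid antigen Ter119.

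The mice were C57Bl/6, male and female, and 6 to 8 weeks old when deletion was induced. All 6 carried Mx1-Cre and at least 1 floxed P38α allele: 3 were Mx1-Cre/P38α fl/+ (P38α+/−) and 3 were Mx1-Cre/P38α fl/fl (P38α−/−). Every mouse received polyIC (300 µg, 3 injections on alternate days), rested for 6 weeks and was given phenylhydrazine (PHZ, 100 mg per kg, 1 injection), which lyses red cells, and CD71highTer119+ cells were sorted on day 4 of recovery. The Mx1 promoter answers to interferon in all blood lineages, granulocytes included, so deletion was not limited to erythroid cells, and the P38α+/− controls shared the Cre, the deletion of 1 allele, the polyIC and the PHZ.

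RNA of each mouse (10 ng) was read on 1 Agilent 1-colour array, and between 28.9% and 53.1% of probes were detected per array, that is, marked by the scanner software as well above background. The shares were 53.1%, 38.2% and 36.9% in P38α+/− replicates 1, 2 and 3 and 28.9%, 35.9% and 35.1% in P38α−/− replicates 1, 2 and 3. Mapk14, which encodes P38α, gave log2 fold changes of 0.54 (adjusted p = 0.186, limma) and 0.01 (adjusted p = 0.991) at its brighter and dimmer probe in the arrays labelled P38α−/−. No source used here places either probe inside the deleted part of the gene, so the genotypes rest on the labels, as does every direction given below. Of the 6 arrays, 5 lay on 1 slide, and P38α−/− replicate 3 was alone on slide 2 and on scan day 2. All 12 erythroblast markers were detected in all 6 mice, and none passed the test. Their summed level, in multiples of the array's 75th percentile signal, ranged from 291 to 347 in P38α+/− and from 278 to 354 in P38α−/−.

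The members were read by 12 probes, 2 each for Mpo and Camp and 1 for each other gene. All 12 were detected on all 6 arrays and 0 were saturated, so every member entered the test. Each value below is a log2 signal from which the 75th percentile of its own array was subtracted, taken over 15540 probes that every array detected, so that 0 is the level of a fairly bright probe. Probes differ in how well they bind, so levels of different genes are not compared. For orientation, 4 of the probes are printed here in lower case, 5′ to 3′, since the value of a member is the brightness of its probe. Each has a reading frame without a stop codon over its whole length, as do the other member probes. No annotation was used to place them in coding sequence. The Prtn3 and Ngp probes span more of the genome than their 60 bases and therefore cross an intron.
Prtn3, chr10:79343869-79344685 of mm9: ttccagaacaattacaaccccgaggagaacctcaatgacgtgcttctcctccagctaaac
Ltf, chr9:110942873-110942932 of mm9: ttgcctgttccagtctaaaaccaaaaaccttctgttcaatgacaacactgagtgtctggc
Ngp, chr9:110324266-110324814 of mm9: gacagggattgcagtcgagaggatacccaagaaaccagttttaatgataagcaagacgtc
S100a8, chr3:90473778-90473837 of mm9: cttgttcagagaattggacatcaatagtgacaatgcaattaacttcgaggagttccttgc

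All 10 members were lower in the P38α−/− arrays, and 0 passed the test. Genotypes were compared in limma, p-values were adjusted over 18785 probes by the Benjamini-Hochberg method, and a call needed an adjusted p of at most 0.05 and a fold of at least 2. Over all 14158 genes, 0.17% passed and 0.0353% passed with a lower level in P38α−/−. On this scale the fold itself was at least 2 for 10 of 10 members, against 11.1% of all genes lower by that fold, and 9 of 10 also had an unadjusted p of at most 0.05, against 7.61% of all genes. The 3 P38α−/− arrays lay below all 3 P38α+/− arrays for 8 of 10 members, against 19.7% of all genes. Elane and Lcn2 were the exceptions. The count was also 8 with quantile normalization (9.24% of all genes) and in the authors' table (9.74%), and it was 7 after normexp background correction (8.73%), 6 with the 75th percentile of all probes (4.82%) and 1 with the E1A spike-in spots as the reference (3.02%). Members at least 2-fold lower numbered 5 with the 75th percentile of all probes (4.93% of all genes) and 8 with the E1A spots (8.36%). Their number stayed at 10 with quantile normalization (5.23%), after normexp correction (1.53%) and in the authors' table (5.74%). The methods' t-test likewise called 0 members, beside 2 of all genes. At an unadjusted p of at most 0.05 there, 4 members passed a fold of at least 2, against 5.18% of all genes in either direction. With the percentile taken over all probes in place of the detected ones, Mpo, Prtn3 and Ctsg passed (adjusted p of 0.035, 0.045 and 0.041), beside 654 genes in all against 24. The median log2 fold change was -1.50 over the members and -0.14 over all tested genes. Since the members were chosen with earlier results of these data known, the comparisons with all genes are descriptions. Each genotype was represented by 3 mice, and the p-values measure the spread between them. In such a sorted population, fewer cells of a type and less RNA per cell cannot be told apart.

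**Figure D1:**
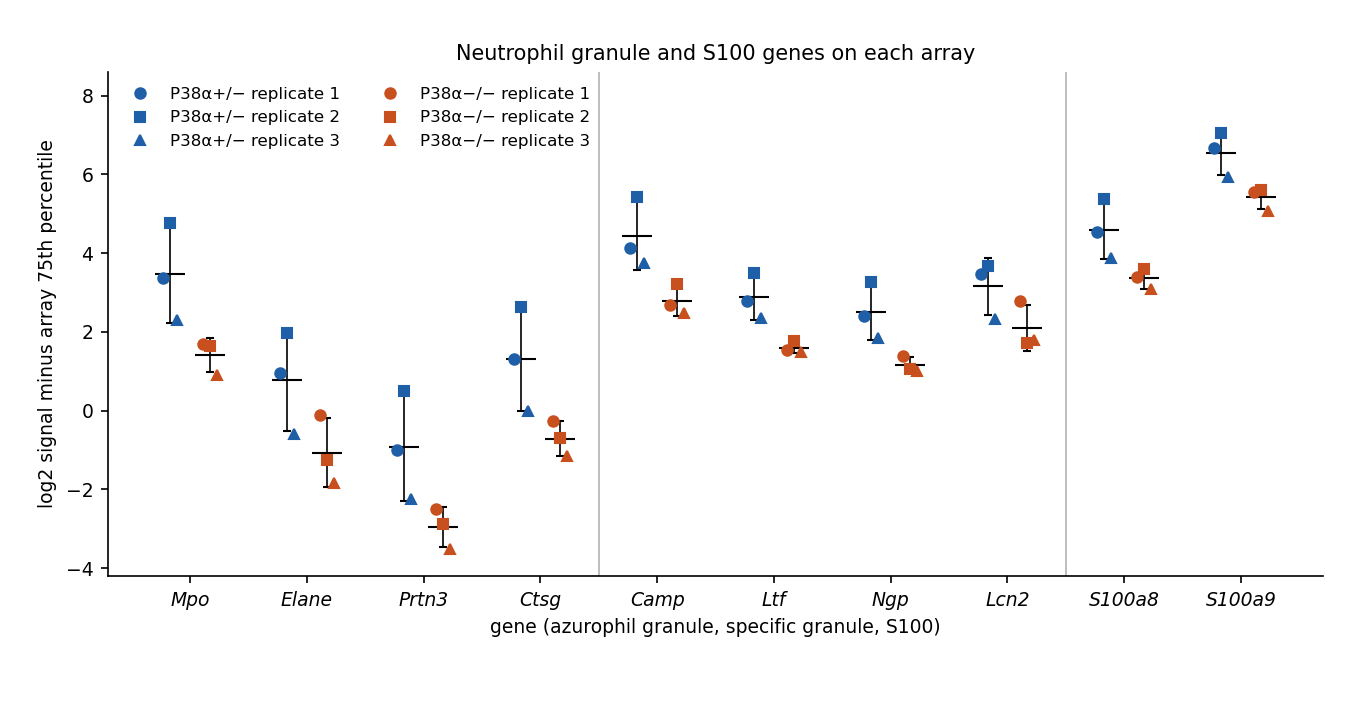
Log2 signal minus the array's 75th percentile (vertical axis) for the 10 genes (horizontal axis, in 3 classes) on the 3 P38α+/− (blue) and 3 P38α−/− (orange) arrays, with a marker shape for each replicate number and the mean ± SD of each genotype in black. P38α+/− replicate 2 is the highest point of all 10 genes, and on this scale the genotypes overlap in Elane and Lcn2.

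The azurophil granule genes differed most between the genotypes. Mpo encodes myeloperoxidase, the heme enzyme that makes hypochlorous acid. Its probe (chr11:87617840-87617899 of mm9) read 3.37, 4.75 and 2.29 in P38α+/− replicates 1, 2 and 3 and 1.68, 1.65 and 0.91 in P38α−/− replicates 1, 2 and 3. The genotypes did not overlap, with means of 3.47 ± 1.23 and 1.42 ± 0.44 (SD, n = 3 each), and the log2 fold change was -2.06 ± 0.61 (SE), at an adjusted p of 0.152. The dimmer Mpo probe gave -1.94 ± 0.57 (SE), at an adjusted p of 0.150.

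Prtn3 encodes proteinase 3, a serine protease. Its probe (chr10:79343869-79344685) read -0.995, 0.498 and -2.25 in P38α+/− and -2.50, -2.87 and -3.51 in P38α−/−. The 2 genotypes were separated by 0.25 at their nearest arrays, P38α+/− replicate 3 and P38α−/− replicate 1. The log2 fold change was -2.05 ± 0.68 (SE), at an adjusted p of 0.176.

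Ctsg encodes cathepsin G, another granule serine protease. Its probe (chr14:56718795-56718854) read 1.32, 2.63 and -0.00062 in P38α+/− and -0.27, -0.70 and -1.16 in P38α−/−. Here too no P38α−/− array reached the lowest P38α+/− array, and the log2 fold change was -2.03 ± 0.65 (SE), at an adjusted p of 0.165.

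Elane encodes neutrophil elastase and lies next to Prtn3 on chromosome 10 (chr10:79350902-79350961). Its probe read 0.95, 1.96 and -0.60 in P38α+/− and -0.12, -1.26 and -1.84 in P38α−/−. The genotypes overlapped, since P38α−/− replicate 1 lay 0.48 above P38α+/− replicate 3. The log2 fold change was -1.85 ± 0.72 (SE), at an adjusted p of 0.221. Across the 4 azurophil genes the folds were 3.60 to 4.16, and at most 2.30% of all tested genes had a log2 fold change as low as theirs.

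The specific granule genes were lower by smaller folds, 2.07 to 3.13. Camp encodes the precursor of the antimicrobial cathelicidin peptide. Its probe (chr9:109749911-109749970) read 4.12, 5.43 and 3.76 in P38α+/− and 2.69, 3.21 and 2.47 in P38α−/−. The genotypes did not overlap, and the log2 fold change was -1.65 ± 0.46 (SE), at an adjusted p of 0.143. The second Camp probe gave -1.71 ± 0.48 (SE), at an adjusted p of 0.144.

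Ltf encodes lactoferrin, which binds iron. Its probe (chr9:110942873-110942932) read 2.78, 3.48 and 2.35 in P38α+/− and 1.54, 1.77 and 1.49 in P38α−/−. The P38α−/− arrays lay within 0.28 of each other and below every P38α+/− array. The log2 fold change of -1.27 ± 0.30 (SE) had the lowest adjusted p of the members, 0.115.

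Ngp encodes neutrophilic granule protein, a relative of the cystatins. Its probe (chr9:110324266-110324814) read 2.41, 3.28 and 1.85 in P38α+/− and 1.38, 1.07 and 1.01 in P38α−/−. The genotypes were 0.47 apart at their nearest arrays, and the log2 fold change was -1.36 ± 0.36 (SE), at an adjusted p of 0.139.

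Lcn2 encodes lipocalin 2, which takes up bacterial siderophores. Its probe (chr2:32240199-32240258) read 3.46, 3.67 and 2.33 in P38α+/− and 2.78, 1.73 and 1.80 in P38α−/−. P38α−/− replicate 1 lay 0.45 above P38α+/− replicate 3, so the genotypes overlapped, as in Elane at the same pair of arrays. With a log2 fold change of -1.05 ± 0.44 (SE), at an adjusted p of 0.245, Lcn2 was the member with the smallest difference, and 10.2% of all tested genes were as low.

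S100a8 and S100a9 lie close together on chromosome 3 and encode the subunits of calprotectin. The S100a8 probe (chr3:90473778-90473837) read 4.53, 5.38 and 3.88 in P38α+/− and 3.39, 3.60 and 3.09 in P38α−/−. The log2 fold change was -1.24 ± 0.39 (SE), at an adjusted p of 0.159, with no overlap. The S100a9 probe (chr3:90496573-90496632) read 6.68, 7.04 and 5.93 in P38α+/− and 5.56, 5.599 and 5.08 in P38α−/−. It too showed no overlap, with a log2 fold change of -1.14 ± 0.32 (SE), at an adjusted p of 0.145.

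**Figure D2:**
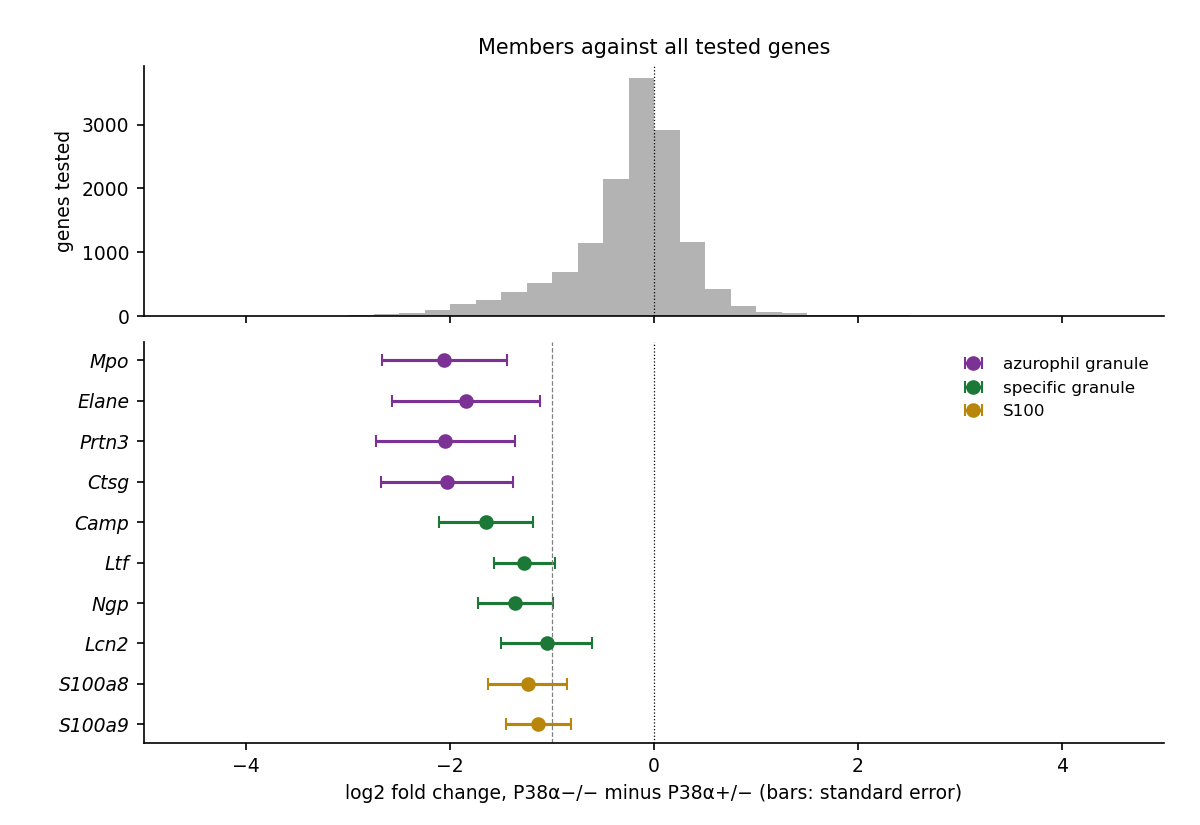
Top, number of tested genes (vertical axis) by log2 fold change, P38α−/− minus P38α+/− (horizontal axis, 1 gene beyond the plotted range); bottom, the log2 fold change of each member with its standard error, coloured by class, with a dashed line at a 2-fold lower level. The 4 azurophil genes lie between -2.06 and -1.85, and the 6 other members between -1.65 and -1.05.

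The 10 members ranked the arrays almost alike. P38α+/− replicate 2 was highest in 10 of 10 members, replicate 1 was above replicate 3 in 10 of 10, and P38α−/− replicate 3 was lowest in 9 of 10, the exception being Lcn2. The spread was larger among P38α+/− than among P38α−/− mice in all 10 members, with SDs of 1.23 to 1.38 against 0.44 to 0.88 for the azurophil genes. P38α+/− replicate 2 exceeded the mean of the other two P38α+/− arrays by 1.79 to 2.12 in the azurophil genes, by 0.77 to 1.49 in the specific granule genes and by 0.74 to 1.17 in the S100 genes. Thus the class that differed most between genotypes also differed most among mice of 1 genotype. Without P38α+/− replicate 2 the log2 fold changes were -1.42 for Mpo, -1.34 for Prtn3, -1.37 for Ctsg, -1.25 for Elane, -1.15 for Camp, -0.97 for Ltf, -0.98 for Ngp, -0.79 for Lcn2, -0.85 for S100a8 and -0.89 for S100a9. All 10 remained negative, and 5 of 10 were then past a 2-fold lower level, against 9.98% of all genes.

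Replicates of the same number varied together, and the deposited design speaks of pairs of mice, so differences within a number are also given. Each of the 10 members was lower in P38α−/− in each of the 3 pairs, 30 differences in all. The members varied together over the arrays, so these are not 30 separate observations. The share of all genes lower in every pair was not counted, and it includes the 19.7% whose genotypes do not overlap in this direction. With the 75th percentile of all probes, 29 of 30 were lower, and Lcn2 in pair 1 was 0.28 higher. The differences ran from -1.69 to -0.69 in pair 1, from -3.37 to -1.44 in pair 2 and from -1.38 to -0.53 in pair 3. Pair 2 showed the largest difference in 10 of 10 members.

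The classes were then compared. For each array, every member was set to its P38α+/− mean and the members of a class were averaged. The means are descriptions, with no test. The azurophil mean stood at 0.00, 1.30 and -1.30 in P38α+/− replicates 1, 2 and 3 and at -1.46, -1.96 and -2.56 in P38α−/− replicates 1, 2 and 3. The difference of genotype means was -1.99 on the log2 scale, or 3.98-fold lower, and the nearest arrays were 0.16 apart. The specific granule mean stood at -0.05, 0.72 and -0.67 against -1.15, -1.30 and -1.55, a difference of -1.33, or 2.52-fold lower. The S100 mean stood at 0.03, 0.64 and -0.67 against -1.10, -0.97 and -1.49, a difference of -1.19, or 2.28-fold lower. On this scale, in each class the 3 P38α−/− arrays lay below the 3 P38α+/− arrays. With the 75th percentile of all probes they did so too, but the nearest S100 arrays stood at -0.49 and -0.47. With the E1A spike-in spots as the reference, the genotypes overlapped in all 3 classes. There P38α−/− replicate 2 lay above P38α+/− replicate 1. The values were -1.10 against -1.17 for azurophil, -0.44 against -1.22 for specific granule and -0.11 against -1.14 for S100 genes.

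The contrast between the early and the later granule class does not depend on the factor by which an array is scaled, since it cancels. Azurophil minus specific granule stood at 0.05, 0.58 and -0.63 in P38α+/− and at -0.32, -0.66 and -1.01 in P38α−/−. The difference was -0.66, so the azurophil genes were lower by a further 1.58-fold, but the genotypes overlapped. P38α+/− replicate 3 lay 0.32 below P38α−/− replicate 1. Within pairs the contrast was -0.37, -1.24 and -0.38, of the same sign in 3 of 3 and largest in pair 2. Without P38α+/− replicate 2 it was -0.37. The contrast between S100 and specific granule genes was 0.15, with P38α+/− arrays from -0.08 to 0.08 and P38α−/− arrays from 0.05 to 0.33. On the 5 arrays of slide 1, without P38α−/− replicate 3, the class differences were -1.70 for azurophil, -1.22 for specific granule and -1.03 for S100 genes, and the azurophil to specific contrast was -0.49.

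**Figure D3:**
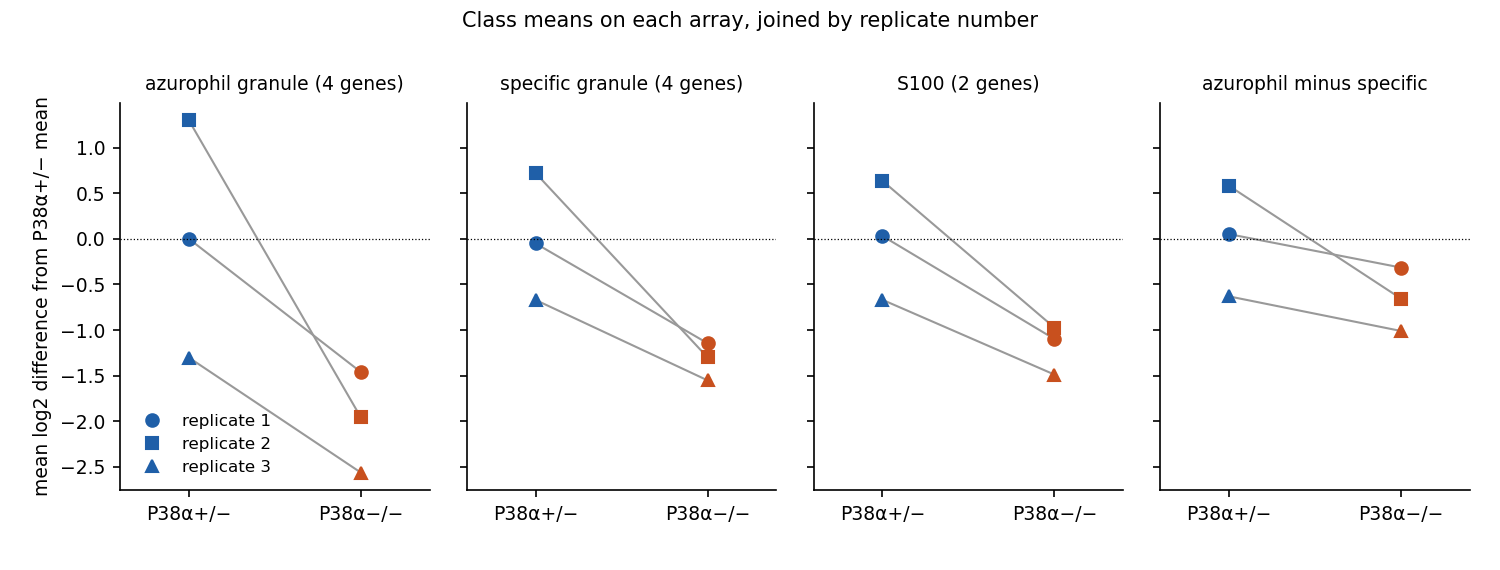
Mean log2 difference from the P38α+/− mean (vertical axis) for the 3 classes and for azurophil minus specific granule, by genotype (horizontal axis); each point is an array, lines join arrays of the same replicate number and the dotted line marks 0. Every line slopes down, the azurophil class covers the widest range (from 1.30 to -2.56), and the contrast at the right overlaps between the genotypes.

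The 3 class means followed each other over the 6 arrays, with Pearson's r of 0.99 for azurophil and specific granule genes, 0.98 for azurophil and S100 and 0.99 for specific granule and S100. After the genotype means were taken out, r was 0.99, 0.96 and 0.97. These are descriptions over 6 arrays that share their scaling.

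A search for genes like each class covered 2170 other genes that were detected on all 6 arrays, with an SD over arrays of at least 0.5. Those whose pattern over the 6 arrays was most like each class were sought by Pearson's r. For the azurophil class they were Mical1, Cnn2, Ly6c1, AF138742 and Coro1a, with r of 0.998 to 0.999. Coro1a encodes coronin 1A, an actin-binding protein of leukocytes, and Ly6c1 a surface antigen of myeloid and lymphoid cells. For the specific granule class they were Lyz1, a lysozyme, Ncf1, a subunit of the phagocyte NADPH oxidase, Alox5ap, the 5-lipoxygenase activating protein, S100a6 and Hdc, the histidine decarboxylase, with r of 0.999 to 1.000. For the S100 class they were Fgd3, Lilrb4a, Mirt1, Myo1f and Clec7a, the beta-glucan receptor dectin-1, with r of 0.997 to 0.999. Such values were common, since between 298 and 317 of the 2170 genes had r above 0.95 with a given class. With the genotype means taken out, r of these 15 genes was 0.991 to 1.000.

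The stretches before the start sites of the 10 genes were searched, on both strands, for motifs bound by granulocyte transcription factors. PU.1 and C/EBP factors are known drivers of granule genes, and Gfi1 is a repressor needed for neutrophil maturation. The RefSeq promoter table (GRCm38.p6) held 1 entry for each member, and the 250 bases before the start were used. All 4 azurophil genes held GAGGAAG, the PU.1-like motif, on the gene's own strand, and none held TTNNGNAA, the C/EBP-like motif, or AATCA, the Gfi1-like core. The C/EBP-like motif was found in 5 of the 6 other members (Ltf, Ngp, Lcn2, S100a8 and S100a9), and Camp held none of the 3 motifs. Over the members, 6 of 10 held the PU.1-like, 5 the C/EBP-like and 2 the Gfi1-like motif, against 10.6%, 36.8% and 33.7% of all 32851 promoters. A match is a match of letters, and binding was not measured. The stretches of the azurophil genes, and of Ltf and Ngp for contrast, are shown 5′ to 3′ on the gene's strand, with every match to any of the 3 motifs in capitals. In Ltf the first C/EBP-like match and the Gfi1-like match share 1 base.
Mpo, chr11:87793534-87793633 of GRCm38.p6, plus strand: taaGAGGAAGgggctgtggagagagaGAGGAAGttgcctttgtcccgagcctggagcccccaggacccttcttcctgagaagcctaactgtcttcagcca
Elane, chr10:79886212-79886311 of GRCm38.p6, plus strand: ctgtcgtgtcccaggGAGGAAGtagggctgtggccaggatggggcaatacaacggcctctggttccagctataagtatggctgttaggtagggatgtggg
Prtn3, chr10:79879517-79879616 of GRCm38.p6, plus strand: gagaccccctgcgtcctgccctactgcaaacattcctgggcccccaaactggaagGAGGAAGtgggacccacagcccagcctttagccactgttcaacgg
Ctsg, chr14:56102725-56102824 of GRCm38.p6, minus strand: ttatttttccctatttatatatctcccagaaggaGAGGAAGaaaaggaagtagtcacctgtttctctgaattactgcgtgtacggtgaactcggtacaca
Ltf, chr9:111019042-111019241 of GRCm38.p6, plus strand: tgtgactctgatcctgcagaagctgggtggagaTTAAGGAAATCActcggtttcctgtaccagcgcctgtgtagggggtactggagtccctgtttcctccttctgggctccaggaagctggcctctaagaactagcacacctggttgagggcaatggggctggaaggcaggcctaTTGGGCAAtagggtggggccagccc
Ngp, chr9:110419658-110419807 of GRCm38.p6, plus strand: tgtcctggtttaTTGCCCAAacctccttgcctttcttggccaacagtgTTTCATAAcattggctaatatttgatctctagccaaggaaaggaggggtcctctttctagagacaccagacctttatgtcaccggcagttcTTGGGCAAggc

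Wider lists of granulocyte genes, which hold none of the members, were described by counts and medians, to be read beside the median of -0.14 and the 11.1% of all genes at least 2-fold lower. Values of single genes on these lists and on the marker lists are log2 fold changes, P38α−/− minus P38α+/−, unless called levels. None of the genes of the wider lists passed the test, and 1 (Cxcr2) passed with the replicate number as a block. Of 19 azurophil stage genes, 16 were tested, 15 were lower in P38α−/− and 13 at least 2-fold lower, with a median log2 fold change of -1.69. Cst7, which encodes the protease inhibitor cystatin F, gave -2.18 ± 0.68 (SE, adjusted p = 0.160) and Ms4a3, a marker of granulocyte and monocyte progenitors, -2.12. Gfi1 gave -1.87 and Cd63, a tetraspanin of azurophil granule membranes, -1.85. Ctsc, the protease that activates the azurophil serine proteases, was the 1 gene of the list that read higher (1.52, adjusted p = 0.193), and its probe was detected in 1 of 3 P38α+/− mice. It was picked out after its value was seen.

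Of 22 specific granule stage genes, 20 were tested, 20 were lower and 17 at least 2-fold lower, with a median of -1.32. Chil3, a chitinase-like protein of myeloid cells, had levels of 3.05 ± 0.73 in P38α+/− and 1.53 ± 0.31 in P38α−/− (SD, n = 3 each), a log2 fold change of -1.52 (adjusted p = 0.128). Ltb4r1, the leukotriene B4 receptor, gave -1.59 and Cybb, the catalytic subunit of the phagocyte NADPH oxidase, -1.47. Orm1, an acute phase protein, was not well above background in any P38α−/− mouse and was at least 2.66-fold lower there (adjusted p = 0.157).

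Of 24 gelatinase stage and mature neutrophil genes, 20 were tested and 20 were lower, 15 of them at least 2-fold, with a median of -1.25. Il1b, the cytokine interleukin 1 beta, gave -2.24 (adjusted p = 0.097), Il1r2, its decoy receptor, -1.997, Trem3, a myeloid receptor, -1.92, and Cxcr2, the chemokine receptor, -1.79 (adjusted p = 0.152, and 0.048 with the replicate number as a block). Il1r2 was detected in 1 of 3 P38α−/− mice and Trem3 in 2 of 3. Of 13 genes of granulocyte transcription and differentiation, 12 were tested, 11 were lower and 10 at least 2-fold lower, with a median of -1.43. Over the 9 of them detected on all 6 arrays the median was -1.25. Klf4 gave -2.45, Spi1, which encodes PU.1, -1.83 and Id2 -1.79. Klf4 and Id2 were each detected in 1 of 3 P38α−/− mice and Spi1 in 2 of 3. Csf3r, the receptor for granulocyte colony-stimulating factor, stands on 3 of these lists and gave -0.16 ± 0.16 (SE), with mean levels of 3.90 in P38α+/− and 3.74 in P38α−/−. It was also picked out after its value was seen. The medians of the azurophil stage and specific granule stage lists stood in the same order as the class means of the members, and their difference was not tested.

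**Figure D4:**
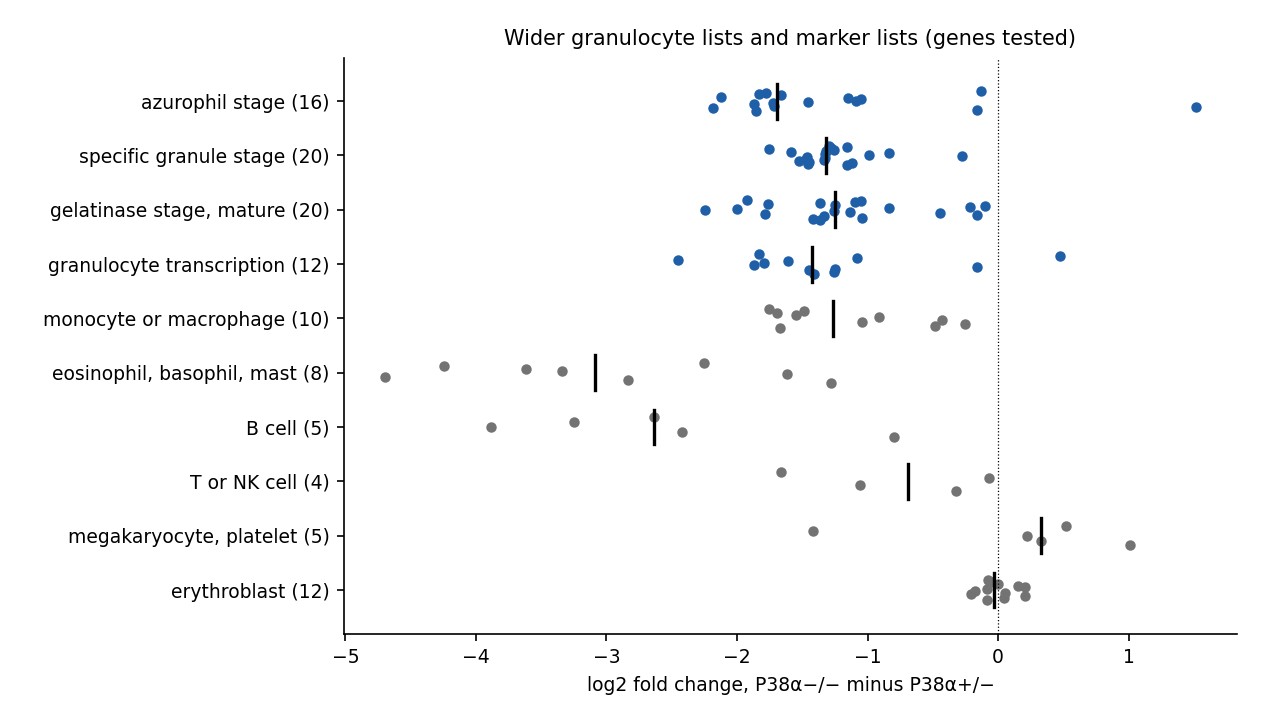
Log2 fold change, P38α−/− minus P38α+/− (horizontal axis), of each tested gene (points) in the wider granulocyte lists (blue) and in marker lists of other cell types (grey), with the list median as a black bar and the number of tested genes in brackets. The granulocyte medians lie between -1.69 and -1.25, and the erythroblast markers, each by its brightest probe, within -0.21 and 0.21. The eosinophil, basophil or mast cell markers reach -4.70, at a probe (Epx) detected in 1 of 3 P38α−/− mice.

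Markers of other cell types are given beside the members, and their part in the result was not tested. Of 10 neutrophil markers other than the members, 10 were tested, 10 were lower and 7 at least 2-fold lower, with a median of -1.29 and a summed level of 25.1 to 38.1 in P38α+/− and 17.9 to 22.1 in P38α−/−. All of these but Fcgr3 also stand on the wider lists above, so this is not a separate count. Fcgr3, an Fc receptor, gave -1.76 (adjusted p = 0.114) and Retnlg, a resistin-like protein of granulocytes, -1.76 (adjusted p = 0.104). Of 12 eosinophil, basophil or mast cell markers, 8 were tested and 8 were at least 2-fold lower, with a median of -3.09 and a summed level of 1.07 to 12.3 against 0.202 to 1.12. Only 4 of the 8 were detected on all 6 arrays, with a median of -2.54. The others entered the test through P38α+/− alone, so a lower value in P38α−/− was favoured by the filter. Epx, eosinophil peroxidase, gave -4.70 (adjusted p = 0.142), Prg3 -4.25 and Prg2, the eosinophil major basic protein, -3.61. Epx and Prg3 were each detected in 1 of 3 P38α−/− mice. After normexp background correction the median was -1.58, and it was -2.28 without P38α+/− replicate 2 and -4.03 without P38α+/− replicate 3. Kit, the stem cell factor receptor of mast cells and early progenitors, gave -1.62 (adjusted p = 0.160) and passed with the replicate number as a block (adjusted p = 0.048). Mcpt8, a basophil protease, was not well above background in any P38α−/− mouse and was at least 5.62-fold lower (adjusted p = 0.138), and Ms4a2 was not well above background in any of the 6 mice.

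Of 14 monocyte or macrophage markers, 10 were tested and 10 were lower, with a median of -1.26 and a summed level of 0.878 to 2.19 against 0.495 to 0.978. Over the 6 of these markers detected on all 6 arrays the median was -1.20, and the others entered the test through P38α+/− alone. Vcam1 gave -1.76, F13a1 -1.69, Adgre1, a macrophage receptor, -1.67 and Cx3cr1 -1.55, the last 2 detected in 1 of 3 P38α−/− mice each, and the macrophage markers Mrc1, Siglec1 and Timd4 were not well above background in any of the 6 mice. Of 10 B cell markers, 5 were tested and 5 were lower, with a median of -2.64 and a summed level of 0.158 to 1.44 against 0.0704 to 0.211. Ebf1 and Ms4a1 were not well above background in any P38α−/− mouse and were at least 4.16-fold (adjusted p = 0.066, and 0.048 with the replicate number as a block) and at least 3.51-fold lower (adjusted p = 0.103), while Vpreb3 gave -2.64 and Cd79b -2.42. The median was -0.90 after normexp background correction, -1.73 without P38α+/− replicate 2 and -3.91 without P38α+/− replicate 3. Over the 3 B cell markers detected on all 6 arrays it was -2.42. Of 8 T or NK cell markers, 4 were tested, with a median of -0.69 and a summed level of 1.09 to 2.98 against 0.881 to 0.973. Nkg7 gave -1.67, Gzma -1.06, Cd3e -0.32 and Lck -0.07. Gzma was detected in 2 of 3 P38α−/− mice, and Nkg7 also stands on the azurophil stage list. Over the 3 T or NK cell markers detected on all 6 arrays the median was -0.32.

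The megakaryocyte or platelet markers mostly read higher in P38α−/−, with 5 of 7 tested, 4 higher and 1 lower, a median of 0.33 and a summed level of 2.15 to 2.98 against 2.56 to 3.45. Gp1ba gave 1.01, Vwf 0.52, Gp9 0.33 and Pf4 -1.42. Gp1ba was detected in 2 of 3 P38α+/− mice, and Ppbp was not well above background in any of the 6 mice. The median of the erythroblast markers was -0.03 over 12 genes, the nearest to 0 of the lists on this scaling, and 0.45 with the 75th percentile of all probes. Ermap gave -0.21, Epor, the erythropoietin receptor, 0.21 and Klf1, the erythroid transcription factor, 0.21. Over all tested probes of these markers, dimmer ones included, the values ran from -0.79 (Tfrc, which encodes CD71) to 0.21. None of the genes on these marker lists passed the test, and 3 of them (Ebf1, Kit and Cxcr2) passed with the block.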

How the data were processed

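RNA of sorted CD71highTer119+ BM erythroblasts from 3 P38α+/− and 3 P38α−/− mice was amplified, Cy3-labelled and read on 1-colour Agilent arrays. The deposited scanner files give an intensity per spot, background-subtracted by Agilent Feature Extraction 10.7.3.1 per the file headers. The authors also deposited a table of normalized intensities, whose steps are not given in the sources used here. Flag columns in the deposited files record which spots were well above background. Probe positions are those of mm9.

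Spots of one probe were averaged, without control and outlier spots. Of 55681 probes, 27509 were named by accession, 3549 by current symbol and 404 by synonym through RefSeq, and 24219 kept the file's name. From each log2 signal, the 75th percentile of its array was subtracted, taken over the 15540 probes detected (well above background) in all 6 mice. A probe was tested if detected in all 3 mice of a genotype, and a gene stood by its brightest tested probe. A gene that entered through 1 genotype alone was thereby favoured to read lower in the other. The two-sided comparison used lmFit and eBayes of limma 3.58.1 under R 4.3.3, tested beforehand on simulated data, with Benjamini-Hochberg adjustment over 18785 probes. An exact permutation of 3 against 3 arrays cannot give a p under 0.1, and the number of arrays limits the precision. A bound ("at least") sets the bright group's mean log2 value against, per array, the higher of the probe's own value and the lowest value among probes well above background. The members and lists were chosen with earlier results of these data known. Named genes were the members, up to 4 tested genes of each list with the largest fold change, the 5 genes most like each class, and Mapk14. Ctsc, Csf3r, Kit and Tfrc, and the markers detected in no mouse (Ms4a2, Mrc1, Siglec1, Timd4 and Ppbp), were named beside these after their values were seen. The values of 1 gene that this rule names are not reported here.

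Replicate numbers were taken as pairs, since arrays of one number deviated together (r of 0.393, 0.242 and 0.389, and at most 0.061 between numbers) and the deposited design speaks of pairs. The comparison stayed unpaired, as in the methods. In the authors' table, the column of P38α−/− replicate 2 had a Spearman correlation of 0.898 with its scanner signal, against 1.00 for the others. Every column was assigned to a sample. The alternatives were other scalings (75th percentile of all probes, quantile, E1A spike-in), normexp background with an offset of 50, the authors' table, filters on dim probes, the mean over a gene's probes, a block for the replicate number or the slide, array weights, each array left out, the methods' t-test and no minimum fold.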

Additional observations from a re-analysis of the deposited data

How the results depend on the processing

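All 10 members had a negative log2 fold change under each of the 17 alternatives that gave one. The count of members called stayed at 0 under each alternative except the 75th percentile of all probes, which called 3: Mpo (-1.57, adjusted p = 0.035), Prtn3 (-1.56, adjusted p = 0.045) and Ctsg (-1.54, adjusted p = 0.041). That scaling put the median of all tested probes at 0.32, against -0.16, and called 654 genes, against 24. The members' adjusted p (limma) was 0.99995 with the E1A spike-in and 0.825 to 0.889 with no filter on dim probes. It was 0.0501 to 0.0813 with array weights. With the replicate number as a block, 0 members were called, with adjusted p of 0.068 to 0.150, and 53 genes in all, of which Ebf1, Kit and Cxcr2 stand on the wider and marker lists. Of 108 tested genes of those lists, 0 were called as reported, beside 24 of all 14158 genes. The count was 19 with the 75th percentile of all probes (654 of all genes) and 8 without P38α+/− replicate 3 (172 of all genes). It was 3 with the replicate number as a block (53), 2 with the E1A spike-in (7) and 1 with quantile normalization (14). With array weights it was 8, where the count over all genes is not given, and under the others it was 0. The 75th percentile of all probes put the list medians nearer to 0, at -0.84 for the specific granule stage, -0.77 for the gelatinase stage, -0.95 for transcription and differentiation, -0.80 for neutrophil, -0.78 for monocyte or macrophage and -0.21 for T or NK cell markers, and the megakaryocyte or platelet median at 0.81. After normexp correction they were -0.79 for the gelatinase stage, -0.90 for transcription and differentiation, -0.44 for monocyte or macrophage and -0.33 for T or NK cell markers. The azurophil stage median was -1.06 without P38α+/− replicate 2, the monocyte or macrophage median -0.78 without P38α−/− replicate 3 and the megakaryocyte or platelet median 0.53 without P38α+/− replicate 1. The E1A spike-in centring left 1 member (Elane, beside 3.02% of all genes) with genotypes that do not overlap, against 8 (19.7%). All 30 differences within pairs stayed negative there, and 29 of 30 with the 75th percentile of all probes. The E1A spots stood 2.48 to 2.55 above the 75th percentile on both replicate 1 arrays and 0.51 to 0.80 above it on the others. Leaving out each array in turn gave 0 members called, -2.64 to -1.34 for the azurophil class, -1.66 to -0.97 for the specific granule class, -1.52 to -0.87 for the S100 class and -0.98 to -0.37 for the azurophil to specific contrast. A slide block amounts to leaving out P38α−/− replicate 3, which was alone on its slide.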
